A study of Mus musculus with 30 samples.

Results

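The group described here holds 7 genes, keratins and others listed with them as epithelial, out of the 22477 genes of the deposited table. All 7 were found by their symbols. They are Krtdap, Fam25c and Emp1, which were chosen by their higher FPKM with doxycycline (dox) in these same data, and the simple-epithelial keratin genes Krt7, Krt8, Krt18 and Krt19. All 7 reached 1 FPKM (fragments per kilobase of transcript, scaled to library size, and so a level per transcript length) in at least 1 condition. The dox response of the first 3 genes is therefore a description of how they were chosen. The re-seeded values with and without dox are the terms of that ratio, so for these 3 genes they are descriptions as well, and only the values of the withdrawal time course played no part in the choice.

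The cells were mouse secondary induced pluripotent stem cells (iPSCs), grown from cells that had already been reprogrammed once, and every condition shared the same genetic make-up. They carried dox-inducible transgenes for Oct4, Sox2, Klf4 and cMyc (OSKM), GFP at the endogenous Nanog locus and a constitutive nuclear RFP. Polyadenylated RNA of 30 samples was sequenced, 2 for each of 15 conditions. Of these, 7 conditions formed a time course in N2B27 medium at 0, 24, 36, 48, 60, 72 and 96 h after withdrawal of 2i/LIF, the medium that holds the cells in the naive pluripotent state. The other 8 were cells withdrawn for 0, 24, 48 or 96 h and then re-seeded for 48 h in serum/LIF, without dox (–dox) or with dox to switch on OSKM (+dox). The study describes its replicates as biological. Its methods maintain the cells on feeders of mouse embryonic fibroblasts and, for the colony-forming assay, withdraw 2i/LIF on gelatin and re-seed both arms on such feeders. Whether the RNA-seq cells were plated or cleared of feeders in the same way is not given in the sources used here. For each gene the table has a single value in each condition, made by combining both replicates. No value below carries a spread, no test was possible and no p-value is given. A gene was counted as higher or lower when the plain ratio was at least 2 and the higher value was at least 1 FPKM.

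Keratins are the intermediate filament proteins of epithelial cells, and a filament needs a type I and a type II keratin in pairs. Krt8 (type II) and Krt18 (type I) form the pair of simple epithelia and are the first keratins of the mouse embryo, in the trophectoderm. Krt7 (type II) and Krt19 (type I) join them in many simple and ductal epithelia, whereas Krt14, Krt16 and Krt17 are type I keratins of stratified, proliferating or wounded epidermis and its appendages. Krtdap encodes a small secreted protein of differentiating keratinocytes, and Emp1 encodes a membrane protein of the PMP22 family. Fam25c is a little-studied gene for which no role is given here.

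The promoters of Krtdap, Fam25c and Krt18 are shown because the first pair of genes had the largest +dox to –dox ratios of the group at 48 and 96 h and Krt18 was the most abundant member and moved the other way. The sequences are RefSeq promoter windows of build GRCm38.p6, read 5′ to 3′ on the gene's strand and ended before the first annotated exon, and capitals mark matches to the letters TGANTCA, the AP-1 motif. Krtdap was read on the plus strand at chr7:30787655-30787895, Fam25c on the minus strand at chr14:34355434-34355643 and Krt18 on the plus strand at chr15:102027966-102028179.
Krtdap: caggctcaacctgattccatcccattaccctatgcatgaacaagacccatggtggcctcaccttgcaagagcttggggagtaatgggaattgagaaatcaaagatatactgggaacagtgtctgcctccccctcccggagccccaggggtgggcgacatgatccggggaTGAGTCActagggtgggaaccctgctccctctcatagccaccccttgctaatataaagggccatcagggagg
Fam25c: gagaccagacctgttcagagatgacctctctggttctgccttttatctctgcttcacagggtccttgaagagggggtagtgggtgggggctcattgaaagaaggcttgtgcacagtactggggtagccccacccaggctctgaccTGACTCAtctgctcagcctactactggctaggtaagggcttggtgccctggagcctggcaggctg
Krt18: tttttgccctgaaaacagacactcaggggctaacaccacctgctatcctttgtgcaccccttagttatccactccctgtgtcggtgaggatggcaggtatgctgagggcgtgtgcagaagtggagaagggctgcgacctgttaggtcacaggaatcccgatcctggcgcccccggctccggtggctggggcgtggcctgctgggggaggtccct
The Krtdap match, TGAGTCA, began 81 bases before the RefSeq start, and the Fam25c match, TGACTCA, began 105 bases before it. Emp1 held 2 such matches, 145 and 25 bases before the first of its 2 RefSeq starts, in a window that overlaps annotated exons and is not printed. The motif was not found in the windows of Krt7, Krt8 and Krt18. It reads the same on both strands and occurred in 7.81% of the 32851 RefSeq promoters of 300 bases searched alike. The letters TATAAA, searched on both strands, lay 30 bases before the start in Krtdap and 29 in Fam25c, the latter in exon sequence that is not printed. Krt8 held 2 overlapping matches, 3 and 1 bases before its start, and the other member windows none. These letters occurred in 13.6% of promoters. The octamer ATGCAAAT, to which Oct4 can bind, occurred in 1.74% of promoters and in no member window, and AACCGGTT, a Grainyhead-like motif, in 0.146% and in no member window. GGGTGTG, a Klf-type motif, occurred in 7.95% and in the Emp1 window alone, after its first start. A match is a description of letters and not a bound site. Of the 7 members, 6 had a RefSeq promoter, and Krt19 was not among them.

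In Gencode M21 (mm10), Krtdap lies on chromosome 7 from 30787896 to 30791097 and has 9 short transcripts of 217 to 470 bases. Fam25c lies on chromosome 14 from 34351881 to 34355433 with 1 transcript of 408 bases. Emp1 lies on chromosome 6 from 135362545 to 135383173. The type II genes Krt7 (101411043 to 101430313) and Krt8 (101996698 to 102004482) lie in the keratin cluster of chromosome 15, and the type I gene Krt18 (102028180 to 102032027) lies beside Krt8, 23698 bases away, rather than with the other type I genes. Krt19 lies in the type I cluster of chromosome 11, from 100140810 to 100148665. Krt7 overlaps the annotated gene Gm671 and Krt8 overlaps Gm36026. Whether strand was used in counting was not given in the sources used here, and Krt8 has an annotated pseudogene copy, so their reads may be partly shared.

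Krtdap had the largest +dox to –dox ratio of the members at 0, 24 and 96 h, and at 48 h Fam25c was slightly above it. During withdrawal it stood at 2.46, 5.83, 0.833, 1.31, 0, 1.24 and 0.586 FPKM at the 7 times in order. In –dox cells it stayed low, with 2.41, 2.17, 2.98 and 3.72 FPKM after 0, 24, 48 and 96 h of withdrawal. In +dox cells it was at 13.1, 34.0, 99.0 and 137 FPKM at the same times. Every +dox value thus lay above all 11 other values of the gene, and the level in +dox cells was higher the longer the cells had been withdrawn. The +dox to –dox ratios were 5.45, 15.7, 33.2 and 36.8 in that order. These ratios ranked 37 of 12738 genes with both values above 0 at 0 h and 8 of 12696 at 24 h. Krtdap was chosen by its rise with dox, so these ranks describe the choice and nothing is read from them. Because Krtdap transcripts are short, low values rest on few fragments. Levels were also put in depth steps, units of the typical lowest non-zero FPKM times transcript length, a rough guide to depth and not a count. Krtdap stood at between 0 and 50.3 steps in the time course, at 20.7 in the 48 h –dox cells and at 702.3 in the 48 h +dox cells.

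Fam25c had another course, being the most abundant member at the start of withdrawal. Over the 7 times of withdrawal it stood at 286, 107, 52.4, 21.5, 6.45, 6.01 and 1.47 FPKM, so that the value at 0 h was 194.5-fold the value at 96 h. In –dox cells it was at 58.2, 17.7, 2.49 and 1.68 FPKM after 0, 24, 48 and 96 h of withdrawal. In +dox cells it was at 151, 37.8, 84.6 and 44.0 FPKM. The +dox to –dox ratios were 2.59, 2.13, 34.0 and 26.1. The –dox level was thus lower with every further time of withdrawal, whereas the +dox level stayed within 37.8 to 151 FPKM. Low values, at 96 h of withdrawal and in the –dox cells of 48 and 96 h, lay at only 14.1, 15.0 and 11.4 depth steps, so the size of ratios that rest on them, the 194.5-fold included, is uncertain.

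Emp1 stood at 20.4, 8.59, 2.42, 2.002, 0.945, 0.495 and 3.33 FPKM over the time course, lowest at 72 h. In –dox cells it was at 13.3, 1.53, 5.56 and 101 FPKM after 0, 24, 48 and 96 h, and in +dox cells at 44.9, 6.89, 25.4 and 204 FPKM. Both arms were lowest at 24 h and highest at 96 h, with the +dox value above the –dox value at each time. The ratios of +dox to –dox were 3.38, 4.51, 4.57 and 2.02, the last just over the 2-fold limit. The other PMP22-family genes differed among themselves. Emp2 and Emp3 differed by less than 2-fold with dox at 48 h, with 9.26 and 6.77 FPKM for Emp2 in –dox and +dox cells and 11.9 and 18.8 for Emp3. Emp2 was higher in the +dox cells at 96 h, with 58.7 against 17.8 FPKM, and like Emp1 was lowest at 24 h and highest at 96 h in both arms. Emp3 was above its –dox value in the +dox cells at each time, always by less than 2-fold. Pmp22, the myelin protein gene that names the family, was lower with dox at 24, 48 and 96 h, with 113 FPKM in –dox and 5.74 in +dox cells at 48 h.

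**Figure D1:**
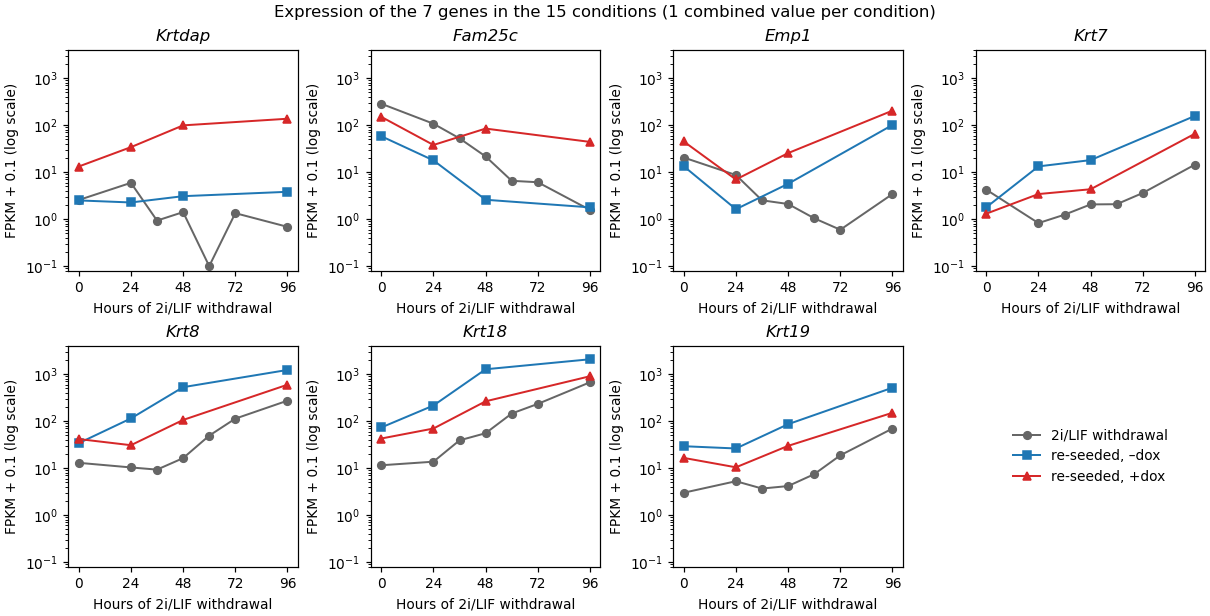
Levels of the 7 genes (FPKM + 0.1, log scale) against hours of 2i/LIF withdrawal, in the time course (grey circles) and in cells re-seeded for 48 h without dox (blue squares) or with dox (red triangles), each point being 1 combined value of 2 replicates. The red points lie above the blue ones at all 4 times for Krtdap, Fam25c and Emp1, and below them at 24, 48 and 96 h for Krt7, Krt8, Krt18 and Krt19.

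Krt8 and Krt18 were the most abundant keratins in differentiated cells. Krt8 stood at 12.8, 10.2, 9.18, 16.2, 48.9, 113 and 272 FPKM at the 7 times of withdrawal. Krt18 stood at 11.4, 13.6, 38.8, 55.2, 145, 232 and 670.3 FPKM at the same times. Krt18 was 3.41-fold its starting value by 36 h, when Krt8 was still at or below its own, and Krt8 first exceeded 2-fold at 60 h with a ratio of 3.81. At 96 h the ratios to 0 h were 21.2 for Krt8 and 58.9 for Krt18. The ratio of Krt18 to Krt8 level, both per transcript length, ran from 0.886 at 0 h to 4.23 at 36 h, with a median of 2.16 over the 15 conditions.

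Krt19 stood at 2.89, 5.15, 3.57, 4.04, 7.32, 18.6 and 69.4 FPKM over the time course, and Krt7 at 4.15, 0.725, 1.14, 1.96, 1.98, 3.51 and 14.4 FPKM. Krt19 thus remained under 10 FPKM through 60 h, and Krt7 was lower at 24 h than at 0 h by 5.72-fold before it reached its highest time-course value at 96 h. Summed over Krt7, Krt8, Krt18 and Krt19, the keratin level was 31.3 FPKM before withdrawal and 1026 FPKM at its end, 96 h. All 7 members differed by at least 2-fold between some pair of times, as did 60.7% of the 14091 genes that reached 1 FPKM in the time course. Between 0 and 96 h the 4 keratins were higher, against 16.8% of genes in that direction. Fam25c and Emp1 were lower, against 16.4% of genes, with Emp1 at 3.33 FPKM and Fam25c at 1.47 FPKM at 96 h. Krtdap was also lower, with 2.46 and 0.586 FPKM.

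Most keratin values of cells re-seeded in serum/LIF without dox lay above those of the cells before re-seeding. Re-seeding joined further culture, a new plating and a change of medium, and these cannot be told apart. In –dox cells withdrawn for 0, 24, 48 and 96 h, Krt8 was at 33.8, 114, 527 and 1227 FPKM, and Krt18 at 73.0, 215, 1268 and 2071 FPKM. Krt19 was at 29.1, 26.1, 85.9 and 513 FPKM, and Krt7 at 1.69, 13.2, 18.0 and 158 FPKM. Compared with cells of the same withdrawal time before re-seeding, Krt8 was 2.63-, 11.1-, 32.6- and 4.51-fold higher and Krt18 6.41-, 15.8-, 23.0- and 3.09-fold higher. The keratin sum of the –dox cells was 138, 368, 1899 and 3969 FPKM in the same order. Of the 4 keratins at the 4 times, only Krt7 at 0 h went the other way, with 1.69 FPKM after re-seeding and 4.15 before.

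The –dox value of Krtdap, Fam25c and Emp1 is the reference of the ratio that chose them, so the counts that follow describe the members and nothing is read from them for these 3 genes. Over the 7 members, 3 were higher and 2 lower after re-seeding without dox at 0 h, where 12% of all genes were higher and 10.1% lower. The counts were 4 higher and 3 lower at 24 h (14.9% and 10.6% of genes), 6 higher and 1 lower at 48 h (15.3% and 11.5%), and 6 higher and 0 lower at 96 h (12.4% and 11.2%). The member that was lower at 48 h was Fam25c, which was 4.92-, 6.05- and 8.65-fold lower after re-seeding at 0, 24 and 48 h and differed by 1.14-fold at 96 h. Emp1 was 5.62-fold lower at 24 h and 30.4-fold higher at 96 h. Since a bulk value pools all cells, fewer cells of a type and less RNA per cell cannot be told apart in any of these comparisons.

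With dox, the 4 keratins were lower than in –dox cells of the same time after 24, 48 and 96 h of withdrawal. Krt8 was at 41.4, 30.6, 106 and 595 FPKM in +dox cells of 0, 24, 48 and 96 h, and Krt18 at 42.5, 69.4, 264 and 901 FPKM. Krt19 was at 16.4, 10.3, 29.6 and 150.3 FPKM, and Krt7 at 1.21, 3.32, 4.23 and 65.9 FPKM. At 48 h the +dox values were 4.99-fold lower for Krt8, 4.81-fold for Krt18, 4.25-fold for Krt7 and 2.90-fold for Krt19. At 24 h they were 3.72-, 3.09-, 3.96- and 2.53-fold lower in the same order, and at 96 h 2.06-, 2.30-, 2.39- and 3.42-fold. At 0 h none of the 4 keratins differed by 2-fold, and Krt8 was 1.22-fold higher with dox. The ratio of Krt18 to Krt8 was close in –dox and +dox cells at 48 h, at 2.40 and 2.49, and at 96 h, at 1.69 and 1.51, and it was 2.16 and 1.03 at 0 h.

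Among the 7 members, 3 were higher and 0 lower with dox at 0 h, where 3.62% of the 12751 genes tested were higher and 5.61% lower. At 24, 48 and 96 h the counts were 3 higher and 4 lower each time. The shares of all genes were 2.87% higher and 3.4% lower at 24 h, 6.56% and 6.46% at 48 h, and 6.67% and 11.1% at 96 h. The 3 higher genes were those chosen for it, so nothing is read from these counts. Over all genes, the log2 ratio of +dox to –dox had its 5th and 95th percentiles at -1.15 and 1.15 at 48 h and at -1.77 and 1.13 at 96 h. The log2 ratios of Krt7, Krt8, Krt18 and Krt19 were -2.09, -2.32, -2.27 and -1.54 at 48 h and -1.26, -1.04, -1.20 and -1.77 at 96 h. At 48 h the 4 keratins thus lay below the 5th percentile, and at 96 h Krt19 lay at it and the other keratins above it.

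**Figure D2:**
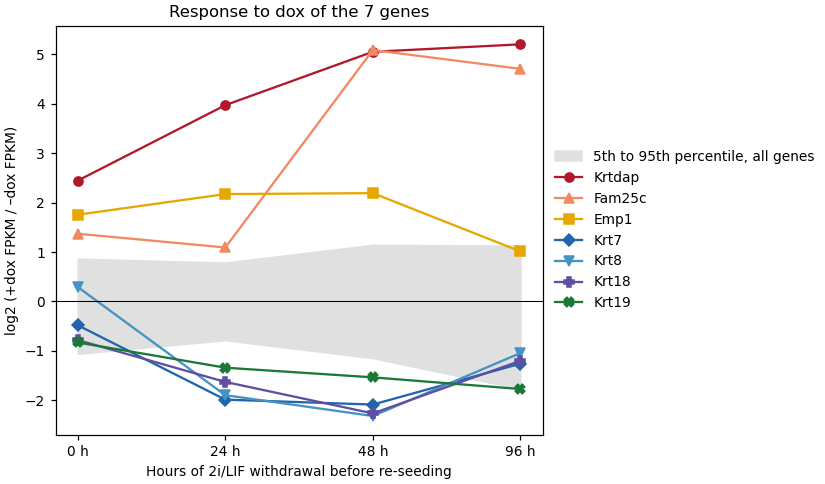
Log2 ratio of +dox to –dox FPKM of the 7 genes against hours of withdrawal before re-seeding, with the 5th to 95th percentile of all genes shaded. Krtdap and Fam25c reach 5.05 and 5.09 at 48 h, and Krt8 goes from 0.29 at 0 h to -2.32 at 48 h.

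**Figure D3:**
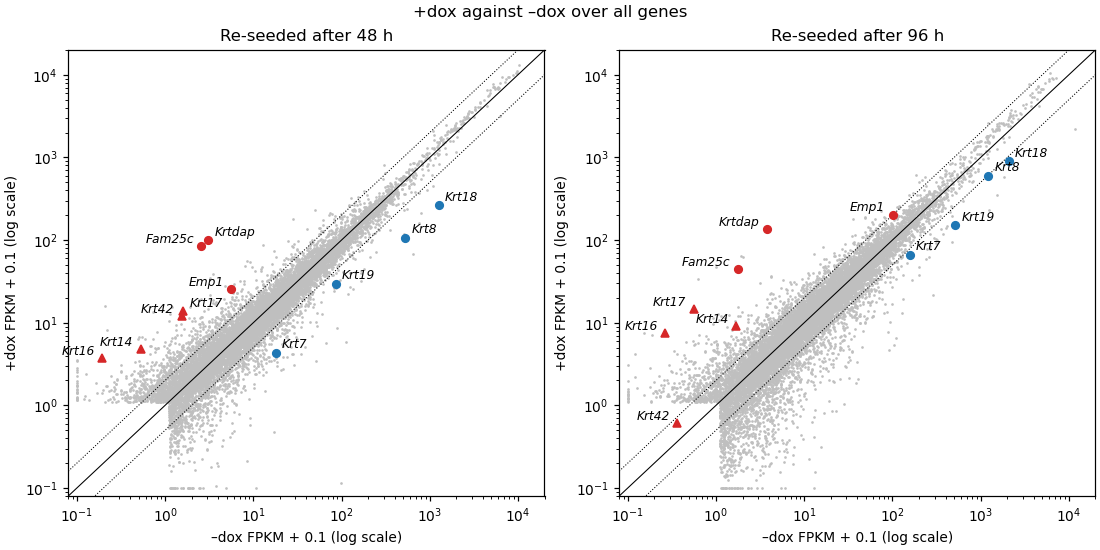
Level in +dox against –dox cells (FPKM + 0.1, log scales on both axes) for all genes with at least 1 FPKM in either, re-seeded after 48 h (left) and 96 h (right), with equality as a solid line and 2-fold as dotted lines. Circles are the 7 members and triangles the keratins Krt14, Krt16, Krt17 and Krt42, with red for higher and blue for lower in +dox cells, and Krt42 at 96 h lies inside the 2-fold lines at low level.

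The +dox cells were also compared with the cells from which they were seeded, at the same withdrawal time. They differed from these by re-seeding and medium as well as by dox, which cannot be told apart here. Krtdap was 5.33-, 5.83-, 75.5- and 234-fold above its starting level after 0, 24, 48 and 96 h. Its starting values at 48 and 96 h lay at only 9.47 and 6.47 depth steps, so the size of the last 2 ratios is uncertain. The comparison with the starting cells was not among those recomputed under the alternatives. Fam25c was 0.526 and 0.352 times its starting level at 0 and 24 h, and 3.93 and 29.9 times at 48 and 96 h. Emp1 was at 2.202, 0.802, 12.7 and 61.3 times its starting level. Fam25c in the 48 h +dox cells, at 84.6 FPKM, thus lay between the values of cells withdrawn for 24 h and for 36 h.

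The keratins of the +dox cells mostly lay above the starting level. Krt7 was the exception at 0 h, with 1.21 FPKM against 4.15, and was 4.59-, 2.16- and 4.57-fold above it at 24, 48 and 96 h. Krt8 was 3.22-, 2.99-, 6.53- and 2.19-fold above it and Krt18 3.73-, 5.11-, 4.78- and 1.34-fold. Krt19 was 5.66-, 1.996-, 7.32- and 2.17-fold above it, the 24 h ratio lying just under 2. Of the 7 members, 5 were higher and 1 lower than before re-seeding at 0 h (11.9% and 11.5% of genes), and 4 and 1 at 24 h (15.3% and 10.9%). All 7 were higher at 48 h (14.8%), and 6 at 96 h (7.64%), with 0 lower at either time (11.7% and 10.5%). These ratios share their starting cells with those of the –dox cells and are not independent of them, and the +dox values of Krtdap, Fam25c and Emp1 are those that chose them.

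The remaining keratins did not move as a family. The table lists 41 keratin genes, of which 12 reached 1 FPKM in some condition and 29 did not, Krt1 coming closest with 0.703 FPKM. At 48 h 10 keratins were tested for dox, and Krt14, Krt16, Krt17 and Krt42 were higher, the 4 keratin members were lower, and Krt10 and Krt20 differed by less than 2-fold. Among all genes 6.56% were higher and 6.46% lower at that time. Krt14 was at 0.433 FPKM in –dox and 4.72 in +dox cells at 48 h, and at 1.61 and 9.07 FPKM at 96 h. Krt16 was at 0.0945 and 3.63 FPKM at 48 h and at 0.167 and 7.35 FPKM at 96 h. Krt17 was at 1.4998 and 13.6 FPKM at 48 h and at 0.464 and 14.4 FPKM at 96 h, so that the +dox level was about the same and the –dox level was lower. The ratios at 48 h were 10.9 for Krt14, 38.5 for Krt16 and 9.09 for Krt17, with the –dox value of Krt16 near the floor.

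Krt42, a type I keratin, had a course of its own among the keratins. It was at 24.8 FPKM at 0 h of withdrawal and at 0.329 FPKM at 96 h, a course in the same direction as that of Fam25c. With dox it was 3.05-fold higher at 24 h (4.54 and 13.8 FPKM) and 8.24-fold higher at 48 h (1.45 and 11.9 FPKM), but reached only 0.519 FPKM in +dox cells at 96 h. Krt80, a type II keratin, was higher with dox at 96 h, with 0.940 and 2.99 FPKM. Krt20, the type I keratin of gut and urothelial surface cells, was at 14.5 and 9.27 FPKM in –dox and +dox cells at 96 h. At 0 h, none of the 8 keratins tested differed by 2-fold with dox, where 3.62% of all genes were higher and 5.61% lower.

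The 4 keratins that were higher at 48 h lie close together on chromosome 11, from the start of Krt14 at 100203162 to the end of Krt42 at 100269871, and Krt19, which was lower, lies in the same cluster. These 4 genes are similar in sequence, and how the quantification shared reads among them was not given in the sources used here, so the split between them is uncertain. Krt5, the type II partner of Krt14 in basal epidermis, did not exceed 0.139 FPKM in any condition and was listed at 0 in both 48 h conditions.

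**Figure D4:**
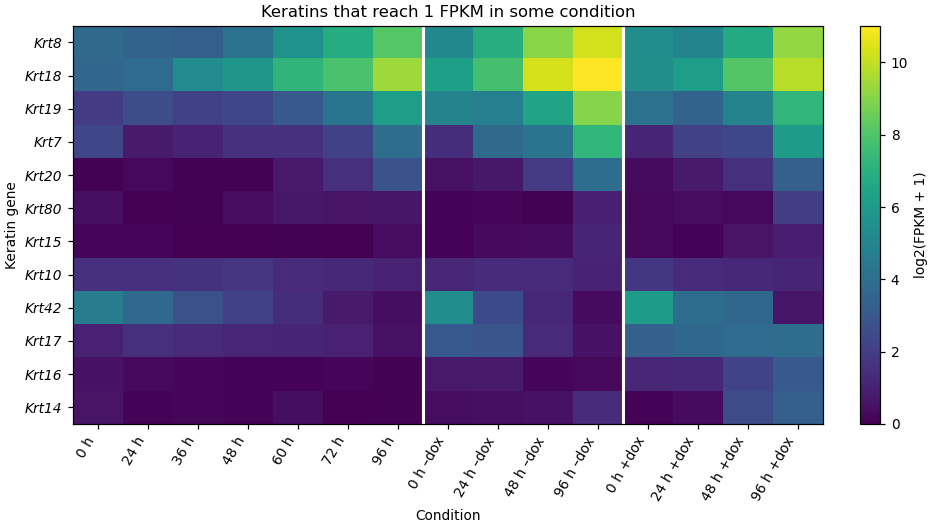
Levels of the 12 keratins that reach 1 FPKM (rows, log2(FPKM + 1) as colour) in the 15 conditions (columns), with white lines between the time course, the –dox cells and the +dox cells. Krt8, Krt18, Krt19 and Krt7 are brightest in the 96 h –dox cells, whereas Krt14, Krt16 and Krt17 have their highest values in the 96 h +dox cells.

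Genes of the cornified envelope, the protein shell of terminally differentiated keratinocytes, were taken as a list of 33 to set beside Krtdap, and 31 were in the table. At 48 h 11 were tested, of which 3 were higher with dox (Dmkn, Tgm3 and Aloxe3) and 2 lower (Ppl and Sfn), with a median log2 ratio of 0.26 beside -0.02 over all genes tested. Among all genes, 6.56% were higher and 6.46% lower at 48 h, and 6.67% and 11.1% at 96 h, which also stands beside the lists that follow. At 96 h 1 of 9 was higher (Lgals7) and 1 lower (Sprr1a). Ivl, the gene of involucrin, a scaffold protein of the envelope, was at 0.0746 FPKM in –dox cells and 0 in +dox cells at 48 h. Lor, the gene of loricrin, was at 1.47 and 0.890 FPKM. Cstb, an inhibitor of cysteine proteases found in many cells, was the most abundant gene of the list, with 361 and 420 FPKM at 48 h. In the same +dox cells Sfn was at 99.6, Tgm1, an envelope cross-linking enzyme gene, at 31.9 and Sbsn at 28.3 FPKM, beside 99.0 for Krtdap. The list thus held both abundant genes and genes near 0.

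Dmkn and Sbsn, which encode the secreted keratinocyte proteins dermokine and suprabasin, lie beside Krtdap on chromosome 7, at 6833 and 31762 bases. Dmkn was at 0.451 FPKM in –dox and 3.53 in +dox cells at 0 h, 0.842 and 1.90 at 24 h, 0.703 and 7.59 at 48 h, and 6.90 and 10.7 at 96 h. It was higher with dox by at least 2-fold at the first 3 times and by 1.55-fold at 96 h. Sbsn was at 5.85 and 14.5 FPKM at 0 h, 9.21 and 18.2 at 24 h, 15.2 and 28.3 at 48 h, and 98.6 and 69.9 at 96 h, so that its order was reversed at 96 h. On the other side of Krtdap, Ffar2 did not exceed 0.0962 FPKM in these 8 conditions.

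Near Fam25c, the mitochondrial glutamate dehydrogenase gene Glud1, 6616 bases away, was at 123 and 259 FPKM in –dox and +dox cells at 48 h and at 55.8 and 118 FPKM at 96 h. Those are ratios of 2.11 at both times, against 1.42 at 0 h and 1.33 at 24 h. Sncg, on its other side, differed by 1.00-fold at 48 h. Eif4b, the translation factor gene next to Krt18, was at 184 and 251 FPKM at 48 h, the opposite direction to Krt18.

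Genes of cell junctions and adhesion were compared as a second epithelial list, and most differed little. Of 25 tested at 48 h, 0 were higher with dox, and the median log2 ratio was -0.14. The desmosomal cadherin gene Dsc2 was lower, with 13.5 FPKM in –dox and 4.71 in +dox cells. Cdh1, the gene of E-cadherin, was at 167 and 171 FPKM in –dox and +dox cells at 48 h, and Epcam, an epithelial adhesion gene also expressed in pluripotent cells, at 181 and 215 FPKM. At 96 h 2 of 26 were higher, Pkp1 and Perp, and Pkp3 was lower. Perp, a desmosomal membrane protein gene, was at 63.5 and 182 FPKM, and Pkp1, which encodes a plaque protein of stratified epithelia, at 0.0201 and 4.05 FPKM.

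Among 20 regulators of epithelial genes, 16 were tested at 48 h and Ovol1 and Klf4 were higher with dox. Klf4, which is also an OSKM transgene, was at 4.68 and 14.6 FPKM, and Ovol1, a zinc finger gene of epidermal differentiation, at 0.341 and 1.14 FPKM. Grhl2, a factor of simple and stratified epithelia, was at 14.9 and 11.6 FPKM. Trp63, the main regulator of stratified epithelia, was at 0.170 FPKM in –dox cells and listed at 0 in +dox cells at 48 h. At 96 h 3 of 18 were higher and 4 lower, the lower ones being Trp63, Elf3, Klf5 and Tfap2c. The other intermediate filaments included Vim, the vimentin gene of mesenchymal cells, which was at 135 and 25.5 FPKM at 48 h and at 299 and 105 FPKM at 96 h. Of the 15 genes of that list tested at 48 h, Vim, Nefm and Prph were lower with dox, as the keratin members were, and Synm was higher.

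Levels of the OSKM genes and of pluripotency markers give the state of the cells behind these values. The table does not separate endogenous from transgene reads. Pou5f1, which encodes Oct4, was at 360 FPKM in –dox and 425 in +dox cells of 0 h. The pairs of values were 213 and 262 FPKM after 24 h, 72.6 and 204 after 48 h, and 2.63 and 9.95 after 96 h. Of the 4 OSKM genes, 0 were higher with dox by 2-fold at 0 and 24 h, 3 at 48 h and 1 at 96 h. Myc stood lower with dox at each time, by less than 2-fold, with 24.5 and 18.7 FPKM at 0 h and 35.9 and 18.7 FPKM at 48 h. Sox2 was at 224 and 122 FPKM at 0 h and at 43.4 and 87.8 FPKM at 48 h. The 9 markers of naive pluripotency summed to 1123 FPKM at 0 h of withdrawal and to 894 and 747 FPKM in –dox and +dox cells at 0 h, and none was at 0, so the labelled pluripotent cells expressed their markers there. Their sum was 91.8 and 258 FPKM at 48 h and 33.8 and 47.3 FPKM at 96 h. At 48 h 6 of 8 naive genes tested were higher with dox, for example Esrrb with 8.31 and 56.2 FPKM.

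Markers of other cell types were in part lower with dox too, against 6.46% of all genes at 48 h and 11.1% at 96 h. Trophoblast markers, 13 genes summed, were at 40.5 and 38.7 FPKM in –dox and +dox cells at 48 h and at 425 and 86.7 FPKM at 96 h. At 48 h 5 of the 9 tested were lower with dox, and at 96 h 9 of 11, with the placental gene Plac1 the most abundant in the –dox cells (103 and 5.23 FPKM). Tfap2c is also in the list of regulators. Prl3d1, a hormone gene of trophoblast giant cells, was listed at 0 in the 48 h –dox cells and was at 0.617 FPKM in the 96 h –dox cells. Markers of extraembryonic endoderm, 16 genes summed, were at 395 and 283 FPKM at 48 h and at 737 and 647 FPKM at 96 h, with 5 of 10 lower at 48 h and 3 of 10 at 96 h. Most of that was Sparc, which many cell types express, at 270.1 and 193 FPKM at 48 h, and Ttr was listed at 0 in both. Surface ectoderm markers, 11 genes including Krt14, summed to 7.80 and 11.5 FPKM at 48 h and to 66.7 and 36.6 FPKM at 96 h. At 48 h 2 of 5 tested were lower, Dlx3 and Msx2, and at 96 h 4 of 9, and Krt14 was the only one higher at either time. The part of such cells in the keratin levels was not tested.

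Fibroblast markers were examined in all 15 conditions, since feeders were used for maintenance and, in the colony-forming assay, for re-seeding with and without dox. The 17 genes summed to 827 FPKM at 0 h of withdrawal, with Col1a1 the most abundant at 229 FPKM, and to 117 and then 50.7 FPKM by 24 and 36 h. Emp1, at 20.4, 8.59 and 2.42 FPKM, and Fam25c, at 286, 107 and 52.4 FPKM, were also highest at 0 h. In the re-seeded cells of 0 h, the fibroblast sum was 17.4 FPKM without and 30.0 with dox, while Emp1 was at 13.3 and 44.9 FPKM and Fam25c at 58.2 and 151 FPKM. At 48 h the sum was 291 and 189 FPKM, with 5 of 10 genes lower with dox and 2 higher, Thy1 (1.55 and 8.20 FPKM) and S100a4 (3.83 and 11.4 FPKM). At 96 h the sum was 496 and 308 FPKM, with 8 of 14 lower and 2 higher, Dcn and S100a4. Acta2 and Tagln, contractile genes not limited to fibroblasts, made up most of it. Among the genes lower with dox at 96 h, Col1a1 was at 33.2 and 3.47 FPKM and Col1a2 at 86.0 and 13.2 FPKM. Fap, a marker of activated fibroblasts, was listed at 0 at 48 h and did not exceed 0.367 FPKM in any condition. The part of fibroblasts in the levels of Emp1 and Fam25c was not tested.

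Across the 15 conditions, the keratin members followed each other and the first 3 genes did not form a single pattern. Pearson's r of log2(FPKM + 1) was 0.97 for Krt8 and Krt18, 0.95 for Krt8 and Krt19 and 0.90 for Krt7 and Krt8. It was 0.69 for Krtdap and Emp1, 0.42 for Krtdap and Fam25c and -0.78 for Fam25c and Krt18. The conditions form series in time and share their cells, so these values describe the table and have no test. They also include the dox pairs by which Krtdap, Fam25c and Emp1 were chosen, so nothing is read from the correlations among these genes.

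The genes with the most similar course to each member were also listed, among genes that reach 10 FPKM in some condition. For Krtdap, Fam25c and Emp1 the course again includes the dox pairs that chose them. For Krtdap they were Fnip2 (r = 0.91), Pitrm1 (0.89), Scarb2 (0.88) and Nhlrc2 (0.87). For Fam25c they were Gstm1 (0.95), Lap3, Tdh and Paics (0.91 each), and for Emp1 Ddah2 and Lmna (0.94 each), Myof and Dpysl3 (0.93 each). For Krt7 they were Bcl9l (0.97) and Dlx3, Tmem37 and H19 (0.96 each). Ebf4 stood first for Krt8 and for Krt19, and Rilpl1 first for Krt18, each with an r of 0.98. No keratin was among the 4 closest genes of any member, although Krt8 and Krt18 correlated at 0.97.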

How the data were processed

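Mouse secondary iPSCs were profiled in 15 conditions by RNA-seq of polyadenylated RNA, with 30 samples. According to the methods and submitters' processing notes, the authors mapped reads to mm10 with TopHat2 2.0.14 and used Cufflinks 2.2.1 and Cuffdiff on Gencode M4 transcripts no shorter than 200 bp. The deposited values are FPKM, although the table is named RPKM, and both replicates of a condition share 1 value. It also holds 5 columns of the authors' own calls of dynamic and dox-responsive genes, which were not used. It gives no counts, so depth is known only roughly, through the depth steps used above. A level of 1 FPKM on 1 kb stood at 42.7 to 49.7 steps in the re-seeded conditions of 0 and 24 h. In all other conditions it stood at 14.3 to 23.5 steps. Comparisons between these sets of conditions join unlike depths, and the part of depth in them was not tested. Sums per condition ran from 603278 to 832607 FPKM, and median-ratio factors over 14518 genes from 0.990 to 1.03.

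Values were used as deposited, with Python 3.11.15, pandas 2.3.3 and numpy 2.4.6. Ratios had no pseudocount, and correlations used log2(FPKM + 1). Genes at 0 in either value were left out of ranks, percentiles and medians of ratios. No test was run, as 1 value per condition allows none. The calls were checked on values of these data changed by fixed factors without noise, which checks the code and not the rate of false calls. Depth steps were FPKM times transcript length in kb, divided by the median of the lowest non-zero such values of the condition. That median was taken from 1380 genes with 1 transcript of at least 2.5 kb. Positions came from Gencode M21, in which 94.9% of symbols were found.

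The members and lists were chosen with earlier results of these data known, and the lists were written from general knowledge. Genes marked for naming were the members, every keratin reaching 1 FPKM, the 4 genes closest to each member, the neighbours and the OSKM genes. For each list the most abundant gene and the 3 largest dox ratios at 48 h among genes of at least 5 FPKM were added. Not all genes so marked are named here, Spint2 and Zfp42 being examples. Other list genes named here, such as Ivl, Lor, Tgm1, Trp63, Krt5 and Pkp1, were chosen after their values were seen. The result of 1 gene of the junction list is not reported here. Alternatives were tried for the fold limit, minimum level, pseudocount, scaling and correlation measure.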

Additional observations from a re-analysis of the deposited data

Results flagged for a closer look

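Krt8 and Krt10 stood out because their dox response had a different direction at different withdrawal times. For Krt8 the log2 ratios of +dox to –dox were 0.29, -1.90, -2.32 and -1.04 after 0, 24, 48 and 96 h of withdrawal. Its level was higher with dox at 0 h, by less than 2-fold, and lower at the 3 later times, by more than 2-fold. For Krt10, a type I keratin of suprabasal epidermis, the ratios on that scale were 0.93, -0.09, -0.16 and 0.19, all under 2-fold and with levels of 1.05 to 2.43 FPKM in the re-seeded cells. Each value combines both replicates, so these differences were not tested.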

How the results depend on the processing

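Of 102 recomputed counts of members, 100 remained within 1.5 times their value. With a 1.5-fold limit 2 members in place of 0 were lower with dox at 0 h. With 1 FPKM added to both values, 1 in place of 2 was lower after re-seeding without dox at 0 h. The log2 ratios moved by more than the allowed margin in 3 of 168 cases, all with 1 FPKM added, to 1.57 for Krtdap and 4.07 for Fam25c at 96 h (re-seeding and dox) and 3.04 for Krt7 at 24 h (re-seeding). No direction was reversed under any alternative run. With Spearman's rho the correlation of Krtdap and Emp1 was 0.80 and that of Emp1 and Krt7 0.25, and 7 of 42 correlations moved in all. No paired analysis was possible because the table holds combined values without replicate columns, and for the same reason no replicate could be left out. Low values of the short genes Krtdap and Fam25c are the least certain, and ratios against them could be larger or smaller than given.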

Other observations

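Some genes of the marker lists went against most of their list or are not described above. Lama1, of the extraembryonic endoderm list, which encodes the laminin alpha chain of early basement membranes, was higher with dox at 0, 48 and 96 h. It was at 8.61 and 23.0 FPKM in –dox and +dox cells at 0 h, at 2.21 and 7.92 FPKM at 48 h and at 6.17 and 16.2 FPKM at 96 h. The basement membrane collagen genes Col4a1 and Col4a2, of the same list, were lower with dox at 48 h, at 24.4 and 9.81 FPKM and at 21.2 and 7.40 FPKM. Gata2, of the trophoblast list, was at 1.22 and 16.3 FPKM at 0 h and, in the opposite order, at 49.7 and 10.9 FPKM at 96 h. S100a4, a calcium-binding protein gene of the fibroblast list, was higher with dox at all 4 times, with 3.83 and 11.4 FPKM at 48 h. These genes were chosen after their values were seen, and with combined replicates none of the differences was tested.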
